A study of Mus musculus with 10 samples.

Results

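Gene deserts are stretches of the genome with no protein-coding gene. The regions described here are the stretches marked by dimethylation of histone H3 at lysine 4 (H3K4me2) that lay more than 100 kb from every protein-coding gene and every antigen receptor constant gene. Peaks of 8 mouse libraries were merged where they lay within 500 bp of each other, which gave 30060 regions in all. Of these, 1424 (4.74%) met the distance rule and are called desert regions below. For comparison, 21702 regions (72.2%) overlapped a gene and 6907 (23.0%) overlapped none but had one within 100 kb. A further 27 regions that met the distance rule were left out of all classes. They lay between Celf2 and Gata3, from position 9113246 to 9751162 of chromosome 2. The rule used gene positions and the presence of a peak in any library. Heights, and which libraries held the peak, took no part in it.

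All cells came from mice whose Gata3 alleles carry a YFP reporter (Gata3-YFP/YFP), with inflamed airways. They were separated by flow cytometry with antibodies and the reporter, and the controls carried the same alleles. Cells sorted as naive T, as T helper 2 (Th2) and as group 2 innate lymphoid cells (ILC2s) gave 2 libraries each, 1 from bronchoalveolar lavage and 1 from the mediastinal lymph node. Where a cell type has 2 values below, the lavage comes first. Spleen CD4+ and thymus CD4+ cells gave 1 library each, so nothing said of them has a replicate. The sorting gates, the age and the sex of the animals and the agent of the inflammation are not given in the sources used here, nor is whether 2 libraries share an animal. The spread within a cell type therefore holds the site as well as any technical difference. In a sorted population, fewer cells with the mark and less mark per cell cannot be told apart.

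H3K4me2 is found at promoters and at enhancers, the elements that raise transcription of a gene from a distance. Genes for lymphocyte transcription factors often sit beside long stretches without other genes, and their enhancers can lie far away within such a stretch. Naive T cells are resting CD4+ cells before they meet antigen, Th2 cells are their descendants that make type 2 cytokines, and ILC2s make the same cytokines but have no antigen receptor. GATA3 is the transcription factor that both Th2 cells and ILC2s need.

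No genome sequence was read here, so the sequences shown are the RefSeq promoter windows (GRCm38.p6, the coordinates of mm10) that fell inside desert regions. Each spans 250 bases before to 50 bases after a gene's start. Of 32851 windows, 96 windows of 81 genes fell inside 76 of the 1424 desert regions (5.34%). Their median GC content was 49.5%, against 52.7% over all windows. The 4 shown are starts of long noncoding RNA genes and belong to regions with 4 different patterns over the libraries. Gm30957 (chr2:8946686-8946985, plus strand) starts in a region called in Th2 cells, ILC2s and lavage naive T cells. Morrbid (chr2:128429302-128429601, minus strand) starts in a region called everywhere. Gm19585 (chr17:52149039-52149338, plus strand) starts in a region called in the naive T, Th2 and spleen libraries. Gm41600 (chr17:52304258-52304557, plus strand) starts in a region that is tall in the thymus. Capitals mark matches, on either strand, to the motif letters of GATA factors (AGATAA), RUNX factors (TGTGGT), TCF and LEF factors (CTTTGA), ETS factors (GGAAGT) and AP-1 (TGANTCA).
Gm30957: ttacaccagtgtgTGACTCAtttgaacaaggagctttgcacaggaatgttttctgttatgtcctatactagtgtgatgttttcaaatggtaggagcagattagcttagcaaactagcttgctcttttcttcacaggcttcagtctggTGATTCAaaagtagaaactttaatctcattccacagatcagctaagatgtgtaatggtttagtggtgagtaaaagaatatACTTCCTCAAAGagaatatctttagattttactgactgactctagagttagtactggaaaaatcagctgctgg
Morrbid: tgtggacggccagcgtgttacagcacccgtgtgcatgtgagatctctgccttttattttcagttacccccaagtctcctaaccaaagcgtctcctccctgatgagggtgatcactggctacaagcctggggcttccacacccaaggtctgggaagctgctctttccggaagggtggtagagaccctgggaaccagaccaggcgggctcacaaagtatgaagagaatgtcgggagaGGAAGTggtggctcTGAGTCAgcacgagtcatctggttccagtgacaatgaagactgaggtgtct
Gm19585: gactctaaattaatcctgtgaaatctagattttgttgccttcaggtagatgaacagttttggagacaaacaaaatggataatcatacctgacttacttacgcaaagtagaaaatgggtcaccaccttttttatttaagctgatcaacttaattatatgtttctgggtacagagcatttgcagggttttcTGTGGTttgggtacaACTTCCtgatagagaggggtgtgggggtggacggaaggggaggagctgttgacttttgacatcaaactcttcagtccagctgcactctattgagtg
Gm41600: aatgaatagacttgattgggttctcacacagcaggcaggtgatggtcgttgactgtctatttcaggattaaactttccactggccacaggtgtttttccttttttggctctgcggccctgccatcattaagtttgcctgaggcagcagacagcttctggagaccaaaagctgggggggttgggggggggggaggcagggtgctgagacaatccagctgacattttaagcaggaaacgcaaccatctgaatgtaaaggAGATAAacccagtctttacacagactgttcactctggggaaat
The Gm30957 window holds 2 AP-1 matches, and an ETS match that runs directly into a TCF and LEF match. The AP-1 letters were in 13.5% of the 96 windows inside desert regions and in 7.81% of all windows. The shares were 26.0% and 16.0% for the TCF and LEF letters, 19.8% and 16.8% for RUNX, 13.5% and 11.2% for GATA, and 21.9% and 23.8% for ETS. A match describes these letters only and shows no binding.

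A height below is the normalized tag count, the number of sequenced tags in a library's peaks within a region, scaled by the authors to 10000000 tags per library. The libraries held 11870820 to 24945548 tags, and the lowest peak of a library rested on 41 to 90 tags. The authors' immunoprecipitation efficiency (tags in peaks over all tags) was 37.3% and 53.7% in the naive T, 28.7% and 29.3% in the Th2, and 43.2% and 45.0% in the ILC2 libraries. It was 44.2% in the spleen and 53.3% in the thymus library. A region with no peak in a library did not pass the authors' criteria there, which does not mean that it had no tags. The markers went with the labels in part. The summed tags of regions at 5 T cell markers were between 6010.6 and 10997.2 in the 6 T cell libraries and 690.9 and 675.4 in ILC2s, which had no peak at Cd6. Cd3d and Cd3g had the same values in every library, so their shared region entered each sum 2 times. Peaks at Rag1 and Cd8a, genes of developing T cells, were called in the thymus library alone. At Rag2 and Cd8b1, of the same kind, the thymus had 2453.2 and 3767 tags, and other libraries had lower peaks. Rag2 had 277.8 and 219.8 tags in ILC2s, 131.6 in lymph node naive T cells and 44.3 in the spleen. Cd8b1 had 104.4 in lymph node naive T cells and 82 in the spleen. At Ccr7, Lef1 and Tcf7, genes of resting T cells, the lavage naive T library had 399.6, 1762 and 945 tags and the lymph node one 2260, 6944.7 and 3964.3. The Th2 libraries had 257.4 and 447.3 at Ccr7, 1226.8 and 1174.3 at Lef1, and 134 and 182.8 at Tcf7. In tags, the lavage library was thus nearer to the Th2 libraries than to the lymph node library of its own label in all 3. As a ratio this held at Ccr7 and Lef1, and not at Tcf7. Ms4a1, Ncr1, Klrb1c, Csf1r and Lyz2, markers of B, natural killer and myeloid cells, had no peak in any library. Other markers did. In every library the B cell gene Cd79a had 498.7 to 1391.9 tags and the myeloid gene Cd14 had 84.2 to 186. The epithelial genes Epcam and Cdh1 also had peaks in every library, at 41.3 to 198.6 and 75.8 to 313.6 tags. Lower peaks at Pax5 and Itgam were called in some libraries. The mast cell gene Cpa3 had 327.5 and 515.5 tags in ILC2s, lower peaks in the naive T, spleen and thymus libraries and none in Th2 cells. Peaks on chromosome Y, 2 to 5 per library, were called in the lavage naive T, Th2 and ILC2 libraries and in none of the lymph node naive T, spleen and thymus libraries. No desert region lay on chromosome Y.

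Desert regions were small, low and unevenly spread. Their median length was 1642 bp, against 2880 bp for regions overlapping a gene. They lay a median of 177 kb from the nearest gene, and the farthest lay 1410591 bp away. They fell in 393 gaps between neighbouring genes. Of these gaps, 167 held 1 region and 33 held 10 or more, and those 33 gaps held 502 regions (35.3%). In all, 912 desert regions (64.0%) overlapped no annotated gene of any kind and 437 (30.7%) overlapped a long noncoding RNA gene. The antigen receptor loci held 55 (3.86%), 29 of them in Igh, 21 in Tcra and 5 in Tcrb. Just beyond the distance limit lay a region between Zfp281 and Nr5a2 with 48.9 tags in the thymus library alone, and one between Spring1 and Med13l with 122.3 and 90.7 tags in ILC2s alone. Just inside it, and not counted, lay one between Runx1 and Setd4 with 85.7 tags in lymph node naive T cells, 50.8 in the spleen and 239.5 in the thymus.

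In every library, desert regions were lower than regions overlapping a gene. Their median height was 92.4 tags against 178 in lavage naive T cells and 86.9 against 215.7 in lymph node naive T cells. In Th2 cells it was 84.8 against 145.2 in the lavage and 83.4 against 149.1 in the lymph node. In ILC2s it was 85 against 163.2 in the lavage and 84.1 against 166 in the lymph node. The spleen gave 78.8 against 196.3 and the thymus 90.65 against 236.4. The desert medians thus lay within a narrow band while those of the other class differed widely, and the ranges of the 2 classes did not overlap. The mean difference of the log2 medians was -1.06 ± 0.24 (SD, n = 8 libraries; exact paired sign-flip test, two-sided p = 0.0078, the smallest that 8 libraries allow). Libraries share many of these regions, so the 8 differences are not fully independent of each other. The authors' fold over IgG was lower as well, with medians of 13.95 to 28.89 in desert regions and 23.63 to 50.55 in the others. Part of the difference went with length: per kilobase of peak the mean log2 difference was -0.33. It was -0.60 when peaks under 80 tags were dropped and -0.64 with equal numbers of peaks per library, with the same p in each case. Among desert regions, the median of the tallest library fell from 92 tags at 100 to 200 kb from a gene to 75.9 tags in the 96 regions beyond 500 kb.

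**Figure D1:**
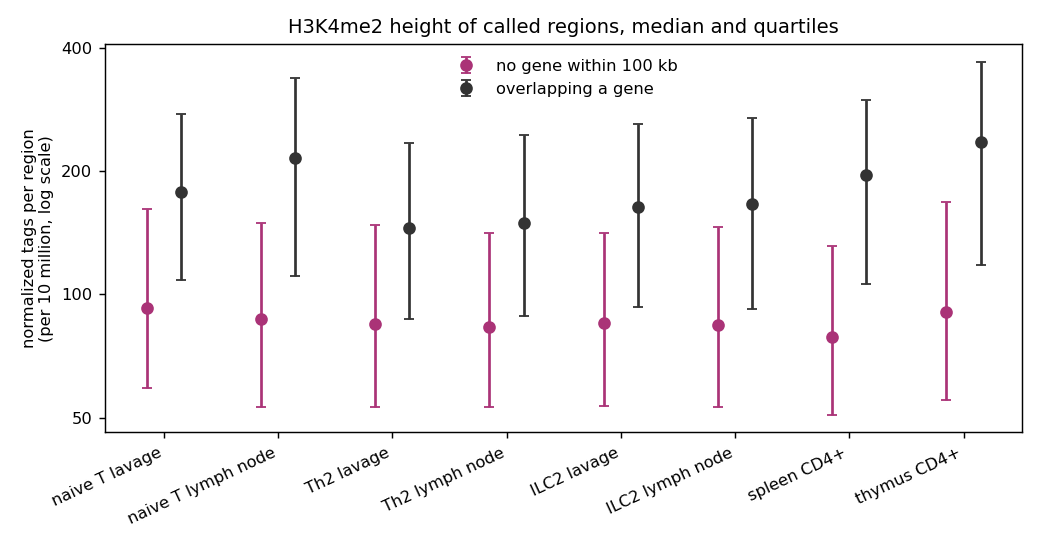
Normalized tag count per called region on a log scale (y) in each of the 8 libraries (x). Points are medians and bars span the quartiles. The desert medians sit between 78.8 and 92.4 tags, below every median of the gene-overlapping regions.

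Desert regions were also shared by fewer libraries. Of the 1424, 438 (30.8%) were called in 1 library and 124 (8.71%) in all 8, against 13.6% and 44.7% of regions overlapping a gene. Over all merged regions, 36.7% were called in all 8. Within a library, the share of called desert regions that no other library had was lowest in lavage Th2 cells (1.27%, against 0.172% of its gene-overlapping regions) and highest in the thymus (31.0% against 8.12%). ILC2s had 8.22% and 9.22%, and naive T cells 4.45% and 8.84%. It exceeded the gene-overlapping share in 8 of 8 libraries, by a mean of 6.04 ± 7.09 percentage points (SD, n = 8; exact paired sign-flip test, two-sided p = 0.0078, the smallest possible). As a share of the regions a library called, the 124 desert regions of all 8 libraries came to 17.6% in the thymus, the lowest, and 41.1% in lymph node Th2 cells, the highest. The 9699 gene-overlapping regions of all 8 libraries came to between 59.5% and 83.7%. These shares repeat the same regions in each library, so no test is drawn from them.

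At matched heights under 120 tags, where most desert regions lay, the classes were close in the share called in a single library. The share called in all 8 libraries was lower for desert regions in every band from 60 tags up, and 0 in both classes below. Among regions whose tallest library had 240 to 480 tags, 31.2% of 125 desert regions and 79.9% of 6139 gene-overlapping regions were called in all 8 libraries. Among those of 480 tags or more, the shares were 49.0% of 51 and 86.8% of 3203. Under 60 tags, regions of a single library made up 68.2% of 428 desert regions and 66.6% of 2758 gene-overlapping ones. Between 60 and 120 tags, which held 491 desert regions, such regions made up 20.8% against 18.6% of 4279, and regions of all 8 libraries 1.02% against 2.17%. From 120 to 240 tags, 16.7% of 329 desert regions and 36.1% of 5323 gene-overlapping ones were called in all 8. Regions of a single library made up 11.2% against 4.51% in that band and 5.6% against 1.03% from 240 to 480 tags. At 480 tags or more they made up 0% against 0.781%. These bands were not tested.

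**Figure D2:**
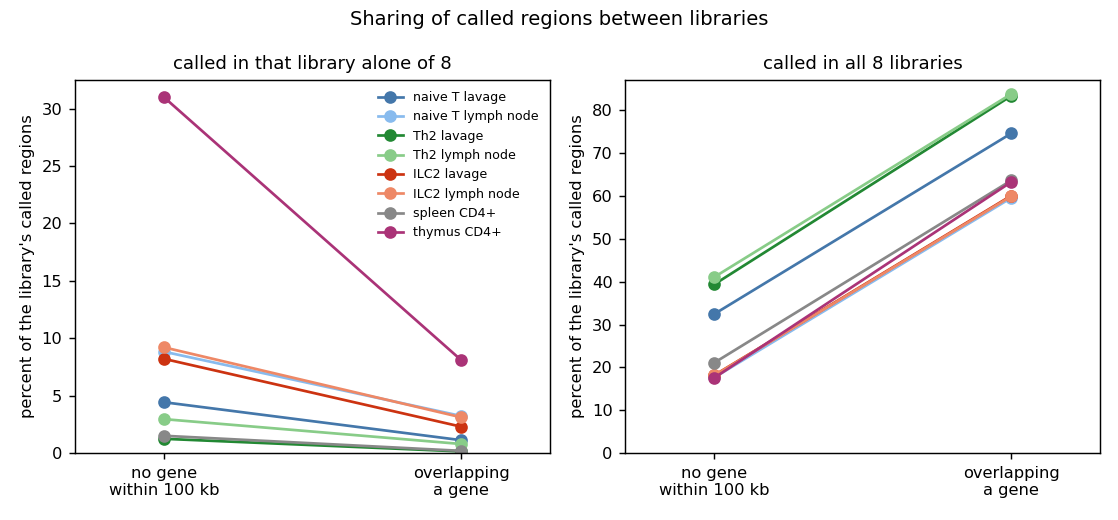
Percent of each library's called regions that were called in that library alone (left) and in all 8 libraries (right), for desert and gene-overlapping regions (x). Each line is 1 of 8 libraries. Every line falls from left to right in the first panel, and every line rises in the second, where the same regions of all 8 libraries are counted in each line.

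The number of desert regions called was 382 and 701 in the naive T libraries, 315 and 302 in the Th2 libraries, and 681 and 683 in the ILC2 libraries. The spleen had 587 and the thymus 704. Of the 1424 desert regions these were 26.8% and 49.2% (naive T), 22.1% and 21.2% (Th2), 47.8% and 48.0% (ILC2), 41.2% (spleen) and 49.4% (thymus). As a share of all regions called in the library this came to 2.36% and 3.32% (naive T), 2.22% and 2.14% (Th2), 3.30% and 3.30% (ILC2), 3.03% (spleen) and 3.54% (thymus). The counts were lowest in the 3 libraries with the lowest immunoprecipitation efficiency, whose part in the result was not tested. The cell type means were 2.84 ± 0.679%, 2.18 ± 0.0552% and 3.30 ± 0.00512% (SD, n = 2 each). Their range of 1.12 points missed the threshold (exact permutation over 15 pairings of the 6 libraries, p = 0.2, smallest possible 0.067). ILC2s stood 0.529 points above the 6 T cell libraries, which missed the threshold as well (exact permutation, two-sided p = 0.321, smallest possible 0.036).

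Libraries of one cell type shared their desert regions in ILC2s and Th2 cells, and much less in naive T cells. The Jaccard index, the number of regions 2 libraries share over the number either has, reached 0.765 between the ILC2 libraries and 0.723 between the Th2 libraries. Only 0.339 was reached by the naive T libraries, which shared 274 desert regions while 108 were called only in the lavage and 427 only in the lymph node. The lavage naive T library shared more with lavage Th2 cells (0.606), and the lymph node naive T library more with the spleen (0.764). Over regions that overlap a gene, the naive T pair had 0.710, the lavage naive T and Th2 libraries 0.837, and the lymph node naive T and spleen libraries 0.917. Pairs of the same type exceeded other pairs by 0.241 in desert regions and by 0.134 in gene-overlapping regions (exact one-sided permutation, p = 0.067 in both, the smallest that 15 pairings allow). Results that rest on the naive T pair are therefore given below without each of its libraries.

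With all libraries in, ILC2s held the largest sets of desert regions set apart from another airway cell type. Without the lavage naive T library the naive T sets were larger, but they then needed a peak in 1 library only. In 239 desert regions (16.8%) both ILC2 libraries and no naive T library had a peak, against 10.7% of all regions and 9.71% of gene-overlapping ones. The reverse, both naive T libraries and no ILC2 library, held for 48 (3.37%), against 2.68% of all regions. Against Th2 cells, 308 regions (21.6%, 18% of all regions) were called in both ILC2 libraries only, and 19 (1.33%, 1.39% of all regions) in both Th2 libraries only. Both ILC2 libraries and no other of the 8 had a peak in 188 (13.2%, 8.38% of all regions). Both Th2 libraries and no naive T library had a peak in 29 (2.04%, 1.01% of all regions), and the reverse held for 68 (4.78%, 5.28% of all regions). Dropping the lavage naive T library raised the naive T regions not called in ILC2s to 373, and those not called in Th2 cells to 472. Without the lymph node one, these counts were 84 and 105. The ILC2 sets without the lavage naive T library were 303 against naive T and 308 against Th2 cells. They still needed a peak in both ILC2 libraries, so the sizes are not alike in rule. With 1 ILC2 library left out, the ILC2 regions not called in Th2 cells likewise rose, to 393 without the lavage and 390 without the lymph node one.

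With the same number of peaks from each library (14721), the balance between Th2 and naive T cells turned, with 51 desert regions called in Th2 cells alone and 15 in the naive T libraries alone. That setting left 88 regions for ILC2s against naive T cells, and it left 72 regions for ILC2s against Th2 cells with 64 in the reverse direction. In 25 desert regions (1.76%, 0.765% of all regions) both Th2 and both ILC2 libraries but no naive T library had a peak, and in 9 (0.632%, 0.732% of all regions) both naive T and both Th2 libraries but no ILC2 library did. The thymus alone of the 8 had 218 (15.3%, 7.57% of all regions), and the spleen alone 9 (0.632%, 0.213% of all regions). The lymph node naive T library and the spleen shared 68 that no other library had (4.78%, 3.34% of all regions). None of these counts was tested.

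**Figure D3:**
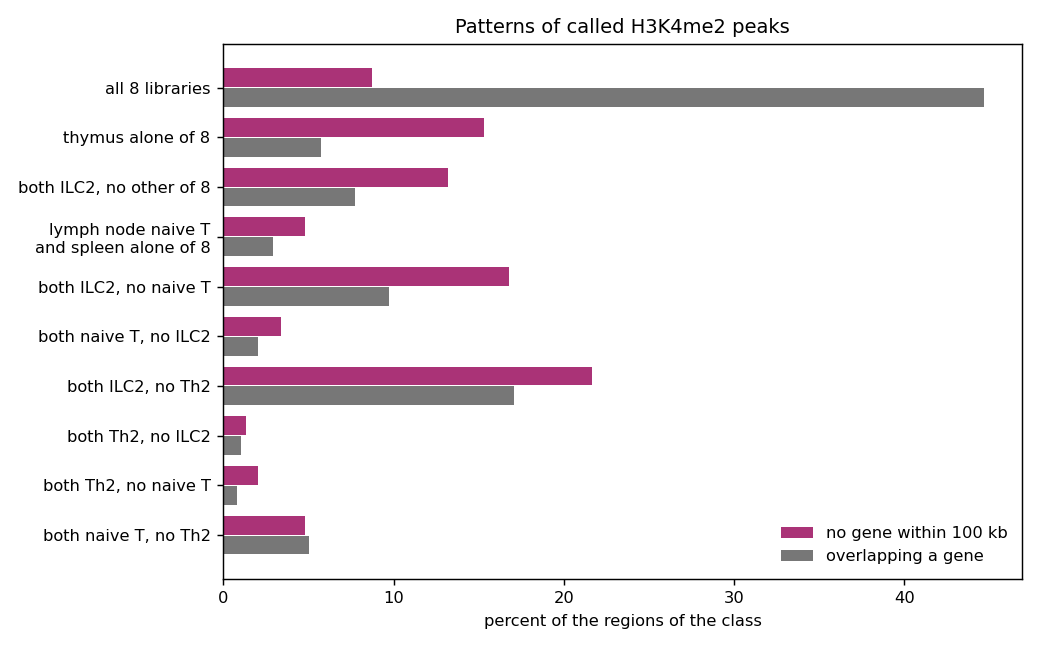
Percent of regions with each pattern of called peaks (x) for desert regions (n = 1424) and gene-overlapping regions (n = 21702). Bars start at 0. The pattern of all 8 libraries is far shorter for desert regions (8.71% against 44.7%), and the patterns of thymus alone and ILC2s alone are longer.

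The tallest desert region of any library lay between Celf2 and Gata3, 886 kb from Gata3. It is the longest of the 1424, spans 30224 bp (chr2:8940856-8971080) and contains the start of the noncoding gene Gm30957 whose promoter is shown above. Its height was 2016.6 and 2767.3 tags in the Th2 libraries and 2361.5 and 2776.6 in ILC2s. Lavage naive T cells had 293 tags there, and no peak was called in lymph node naive T cells, the spleen or the thymus. The region was thus tallest in 4 libraries, lower in 1 and not called in 3. The 293 tags still lay above the upper quartile of desert regions in lavage naive T cells, 162. The same gap held the 27 regions left out above, whose patterns are not described here. It also held 6 further desert regions, none of them called in the spleen, thymus or naive T libraries. One of these (chr2:8875700-8878705) had 43.6 and 125.5 tags in the Th2 libraries and 128.7 and 114.8 in ILC2s.

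The 27 desert regions between Id2 and Rnf144a were called most often in ILC2s. Id2 encodes an inhibitor of E protein transcription factors that innate lymphoid cells need. Each ILC2 library had 23 of the 27, the naive T libraries 12 and 8, the Th2 libraries 8 and 7, and the spleen and thymus 8 each. Over all 1424 desert regions, by comparison, the ILC2 libraries had 47.8% and 48.0%, the naive T libraries 26.8% and 49.2% and the Th2 libraries 22.1% and 21.2%. The spleen had 41.2% of them and the thymus 49.4%. Only 7 of the 27 were called in both ILC2 libraries and no other of the 8. The tallest region that ILC2s alone of the 3 airway types had lay there, 127 kb from Id2 (chr12:25223496-25228917), with 344.4 and 380.2 tags in ILC2s and no peak in any other library. A neighbour 142 kb from Id2 had 567.6 and 640.8 tags in ILC2s, 175.2 and 117.9 in the Th2 libraries, 198.9 in lavage naive T cells and 42 in the thymus. It was thus tallest in both ILC2 libraries and not called in lymph node naive T cells or the spleen.

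The gap from Myc to Gsdmc held the most desert regions, 32 over 1.79 Mb, in 2 groups with different patterns. This order leaves the 27 left-out regions of the Celf2 to Gata3 gap uncounted, and with them that gap would come first. Myc encodes a transcription factor of cell growth, and the noncoding gene Pvt1 begins beside it. The 9 regions within Pvt1 included the only one of the 32 called in all 8 libraries, 174 kb from Myc (chr15:62164351-62171517). Its height was 382.4 and 479.8 tags in the naive T libraries, 211.3 and 213.1 in the Th2 libraries, 215.3 and 251 in ILC2s, 360.3 in the spleen and 129.2 in the thymus. Between 733 and 830 kb from Myc stood a group called in 1 or both ILC2 libraries, with tall members and low ones of 38.5 to 61.7 tags. Its largest region (chr15:62723704-62736808) had 635 and 683.7 tags in ILC2s, 148 and 156.4 in the naive T libraries, 81.6 and 73.3 in the Th2 libraries and 139.4 in the spleen, with no peak in the thymus. The ILC2 libraries lay above all others there. A region 761 kb from Myc (chr15:62751626-62754672) had 198.8 and 189.7 tags in ILC2s and no peak elsewhere. Farther out, 4 low regions between 1473 and 1657 kb from Myc, with 39.9 to 89.3 tags, were called in the thymus alone.

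Between Satb1 and Kcnh8 the 21 desert regions were called mostly in the thymus, lymph node naive T and spleen libraries. Satb1 encodes a chromatin organizer of developing T cells. The thymus had 18 of them, lymph node naive T cells 15 and the spleen 13, while the lavage naive T library, both Th2 libraries and the lavage ILC2 library had 2 each and the lymph node ILC2 library 1. The region that holds the start of Gm41600 had 1241.3 tags in the thymus and 39 in lymph node naive T cells, and no peak elsewhere. A region 512 kb from Satb1 (chr17:52345531-52353250) had 872 tags in the thymus, 178.3 in lymph node naive T cells and 90.9 in the spleen. The thymus was the highest library in both. The start of Gm19585 lay in a region with 364 and 611.8 tags in the naive T libraries, 213.8 and 308.3 in the Th2 libraries and 488.5 in the spleen, which was called in neither ILC2s nor the thymus. The next region, 328 kb from Satb1, was by contrast called in all 8 libraries at 197 to 289.5 tags.

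The 19 desert regions between Foxo1 and Cog6 leaned to naive T cells. FOXO1 is a transcription factor that keeps T cells in the naive state. The naive T libraries had 15 each and the spleen 14, the Th2 libraries 9 and 8, the thymus 9, and the ILC2 libraries 6 and 2. Of all desert regions, the naive T libraries had 26.8% and 49.2%, the spleen 41.2% and the Th2 libraries 22.1% and 21.2%. The thymus had 49.4% of all and the ILC2 libraries 47.8% and 48.0%. Of the 19, 7 were called in both naive T libraries and in no ILC2 library, and 0 the other way round. Over all desert regions these patterns made up 3.37% and 16.8%. A region 447 kb from Foxo1 (chr3:52796942-52803374) had 306.8 and 111.3 tags in the naive T libraries, 220.7 and 209.8 in the Th2 libraries, 42.9 in the spleen and 39.9 in the thymus. Another, 293 kb from Foxo1 (chr3:52643108-52652794), had 41.4 and 481.8 tags in the naive T libraries, 214.9 in the spleen and 369.9 in the thymus. The 2 naive T libraries thus took opposite orders in these regions, the first taller in the lavage and the second in the lymph node, and neither region was called in ILC2s.

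**Figure D4:**
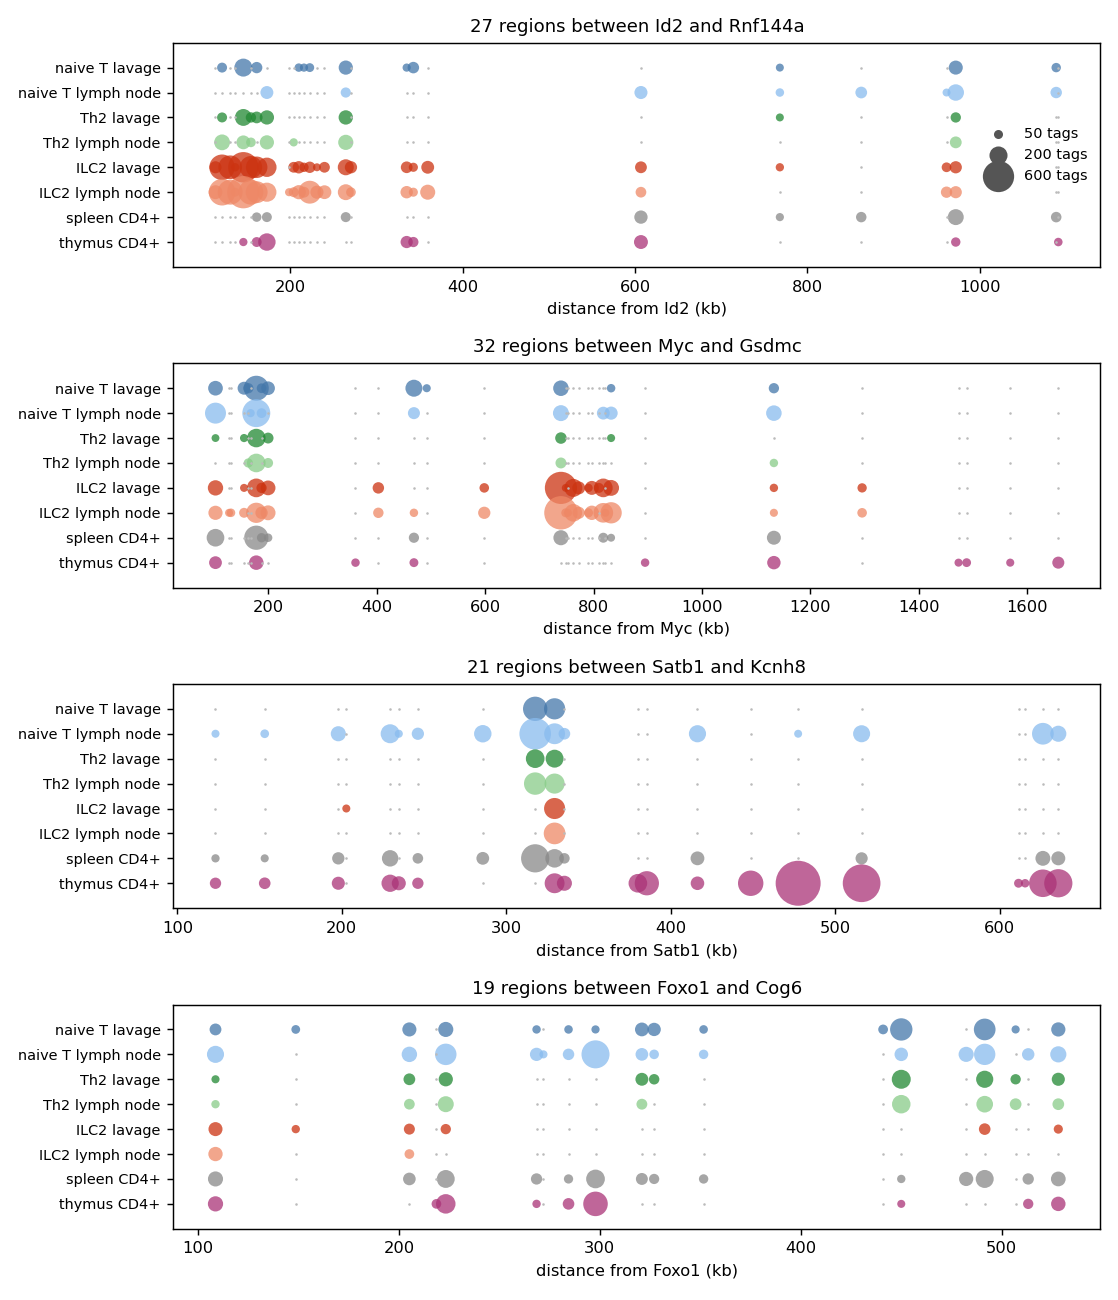
Desert regions of 4 gaps by distance in kb from the gene at the gap's start (x) in each of the 8 libraries (rows). The area of a dot is proportional to the normalized tag count and small grey dots mark regions with no peak in that library. The 23 called Id2 regions of each ILC2 library, the ILC2 group 733 to 830 kb from Myc and the tall thymus dots beyond Satb1 stand out.

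Of the other gaps with most desert regions, 2 were arrays of antigen receptor variable segments. Tcra segments between Gm36448 and Trdc, which T cells rearrange in the thymus, held 21 regions, of which the thymus had 18, lymph node naive T cells 10, ILC2s 2 and 4, the spleen 2, and Th2 and lavage naive T cells 0. The tallest called in the thymus alone, at Trav17 (chr14:53800181-53808127), had 394 tags. The Igh array between Adam6a and Zfp386 held 29, of which the thymus had 16, naive T cells 9 and 14, Th2 cells 4 and 4, ILC2s 13 and 18 and the spleen 12. Of all desert regions, by comparison, the thymus had 49.4%, the naive T libraries 26.8% and 49.2% and the Th2 libraries 22.1% and 21.2%. The ILC2 libraries had 47.8% and 48.0% of them, and the spleen 41.2%. Variable segments are near-identical copies, so heights there are uncertain. The gap from Cd83 to Jarid2, a cofactor of Polycomb repressive complex 2, held 21. The thymus had 12 of these and lymph node naive T cells 11, both near their shares of all desert regions. Its tallest region, 155 kb from Cd83 (chr13:43958378-43964521), had 566.8 tags in the thymus and 49.2 in lymph node naive T cells.

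Of 47 lymphoid transcription factor genes, 20 stood at the edge of a gap with desert regions, and these gaps held 242 regions (17.0%). Of all 21907 genes of the table, 743 (3.39%) stood at such an edge, and of the 2805 that bound any gap wider than 200 kb, 742 (26.5%). Of the listed factors 22 bound a gap that wide, including the 20. In 42 of the 242 both ILC2 libraries and no naive T library had a peak, and in 11 the reverse, against 239 and 48 over all 1424. Sox4, expressed in T cell progenitors, had 14 regions in the gap beside it. The thymus had 13 of them (against 49.4% of all desert regions) and lymph node naive T cells 10 (against 49.2%). The spleen had 6 (against 41.2%), the lavage ILC2 library 2 (against 47.8%) and the other 4 libraries 0. The tallest of the 14 (chr13:28415130-28421028) had 1042.2 tags in the thymus, 419.3 in lymph node naive T cells and 351 in the spleen. Next to Lef1, a partner of beta-catenin in T cells, 1 region (chr3:130898749-130906013) had 918.2 tags in the thymus, 88.6 and 329.5 in the naive T libraries, 57.3 and 52.2 in the Th2 libraries, 65.7 and 53.4 in ILC2s and 263.9 in the spleen. The thymus was the highest library there and the Th2 and ILC2 libraries the lowest.

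Runx1, a factor of T cell development, had 8 desert regions beside it, of which lymph node naive T cells had 7, the spleen and thymus 4 each and the other 5 libraries 0. Of all desert regions, lymph node naive T cells had 49.2%, the spleen 41.2%, the thymus 49.4% and the ILC2 libraries 47.8% and 48.0%. Prdm1, which encodes the repressor Blimp-1, had 5, all called in both ILC2 libraries. The lavage naive T library had 3 of these, the Th2 libraries 2 and 1, and lymph node naive T cells, spleen and thymus 0. Of the Prdm1 regions, 1 (chr10:44819912-44823395) had 200.8 and 219.4 tags in ILC2s, 165.1 in lavage naive T cells and 128.4 and 45.5 in the Th2 libraries. Ahr, the aryl hydrocarbon receptor, had 8, and the spleen had none of them. Its tallest (chr12:35754284-35756323) had 129.9 and 128.8 tags in ILC2s, 82.3 and 91 in the Th2 libraries and 66.5 in lavage naive T cells. The wide gap from Zeb2, a repressor of the zinc finger family, to Acvr2a held a region 3303 kb from Zeb2 and 388 kb from Acvr2a (chr2:48420862-48425912) with 296.1 and 192.1 tags in the Th2 libraries and 149.6 in lavage naive T cells only.

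Of 22 type 2 and ILC2 genes, 3 stood at the edge of a desert gap (Icos, Il6 and Kit), with 12 regions, all of them called in lavage ILC2s and 11 in lymph node ILC2s, against 47.8% and 48.0% of all desert regions in these libraries. The list was chosen with earlier results known. A region 186 kb from Kit (chr5:75382541-75388658), the receptor of stem cell factor, had 301.5 and 282.1 tags in ILC2s and no peak elsewhere. Of 25 T cell genes, 3 did so (Cxcr4, Ifng and Ptprc), with 24 regions. Of all desert regions, the thymus had 49.4%, and 15.3% were called in it alone. The thymus had 12 of the 13 regions between Nr5a2 and Ptprc, the gene of CD45, and 10 of the 13 were called in it alone. The tallest of them, 141 kb from Ptprc (chr1:137896816-137922298), was called in all 8 libraries, with 2671.7 tags in the thymus, 363.6 and 857.6 in the naive T libraries, 259.3 and 226.6 in the Th2 libraries, 418.5 and 373.6 in ILC2s and 697.4 in the spleen. The thymus stood above all other libraries there. Of 11 B cell and myeloid factors, 6 had desert regions beside them, 20 in all. Mc2r and Tcf4 bounded 7 of these, and the thymus had all 7.

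Among desert regions of 1 airway cell type, Th2 cells had the fewest. Both Th2 libraries and no naive T or ILC2 library had a peak in 1 region (0.160% of all regions had this pattern), between Med30 and Ext1, with 42.4 and 54.8 tags. The naive T pattern of that kind held for 32 regions (1.54% of all regions) and the ILC2 pattern for 203 (9.11% of all regions). The tallest naive T one lay between 4933412E24Rik and Lratd2 (chr15:60163491-60181416), with 92.4 tags in the lavage, 2036.6 in the lymph node and 1459.5 in the spleen. It was high in the lymph node and spleen libraries and low in the lavage one. The ILC2 ones included regions between Opa1 and Hes1 (293.4 and 355.7 tags, 72 in the thymus) and between Ube2e3 and Itga4 (287 and 309.7 tags). Another stood between Ets1 and Kirrel3 (217.3 and 281.6 tags). Ets1 encodes a lymphocyte transcription factor and Itga4 the integrin alpha 4 chain.

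The tallest desert regions called in all 8 libraries lay at noncoding genes, and their heights still differed between libraries. A region in Lncpint (chr6:31107899-31129013) had 1393.8 and 921.4 tags in the naive T libraries, 1180 and 1132.2 in the Th2 libraries, 2152.3 and 2142.8 in ILC2s, 803.7 in the spleen and 636.7 in the thymus. The region of Morrbid, a noncoding RNA next to the cell death gene Bcl2l11 that is known from mouse myeloid cells (chr2:128412190-128434838), had 1655.5 and 348.6 tags in the naive T libraries, 1597.1 and 1588.8 in the Th2 libraries, 913.9 and 682 in ILC2s, 339.8 in the spleen and 408.2 in the thymus. ILC2s were highest in the Lncpint region above. In a second region, which holds the start of Lncpint (chr6:31207887-31222663), the naive T libraries had 1036.5 and 997 tags and the spleen 948.6. The Th2 libraries had 862.8 and 857.6 there, ILC2s 849.1 and 872.5 and the thymus 726.5. At Morrbid lavage naive T cells stood with the Th2 cells, and lymph node naive T cells with the spleen and thymus. The tallest region of the spleen alone (213.5 tags, chr17:39848163-39849163) overlapped Rn18s-rs5, which is related to ribosomal RNA and is repeated sequence, so its height is uncertain.

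Heights could be tested where a region was called in all 6 airway libraries, which held for 155 of the 1424 desert regions and 11644 of all regions. The other desert regions had no height test. In limma, fitted over the 11644 with Benjamini-Hochberg adjustment and each library centred on its median, 9 of the 155 were higher in the ILC2 than in the naive T libraries and 3 were lower. Of all regions tested, 2.61% were higher and 1.62% lower, 4.23% in all. Against Th2 cells, 7 were higher in ILC2s (2.1% of all regions) and 3 lower (1.28% of all, 3.38% in either direction). Between Th2 and naive T cells no desert region passed (0 in each direction, against 0.112% of all regions higher and 0.0258% lower). The smallest adjusted p of a desert region was 0.0534 in limma. At an unadjusted limma p under 0.05 stood 45 of the 155, beside 2212 of all 11644 regions. The median log2 difference over the 155 was 0.19 for ILC2s against naive T cells (-0.02 over all), 0.17 for Th2 against naive T cells (0.01 over all) and 0.00 for ILC2s against Th2 cells (-0.01 over all). Centring moved the comparisons: before it, the median region was lower in ILC2s than in naive T cells by a log2 difference of -0.18 and higher than in Th2 cells by 0.43, and Th2 cells lay at -0.62 against naive T cells. Uncentred, Th2 against naive T cells gave 2 higher and 18 lower desert regions. Without the lavage naive T library, 45 desert regions were higher in the ILC2 than in the naive T libraries and 5 lower, and without the lymph node one 19 and 5. Without either Th2 library the higher calls numbered 1 and 2, and without either ILC2 library 0, each with 0 lower.

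Against naive T cells, the region 733 kb from Myc described above had the smallest adjusted p of all desert regions, with a log2 fold change of 2.30 ± 0.18 (SE; limma adjusted p = 0.0073, n = 2 libraries each). Against Th2 cells it was 2.66 ± 0.18 (adjusted p = 0.0093). A region 102 kb from Rgs3 (chr4:62804758-62813906) had 400 and 522.5 tags in ILC2s, 113.7 and 89 in the naive T libraries and 121.6 and 103.6 in the Th2 libraries, a log2 fold change of 2.36 ± 0.30 against naive T cells (limma adjusted p = 0.019). Rgs3 encodes a regulator of G protein signalling. A region 198 kb from Ikzf2, the gene of the transcription factor Helios (chr1:69330758-69333692), had 253 and 230.8 tags in ILC2s and 57.3 to 92.4 in the other 6 libraries. Its log2 fold change against naive T cells was 1.68 ± 0.26 (SE; limma adjusted p = 0.031). The ILC2 libraries lay above all others in these regions.

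Of the 5 regions named for being higher in the ILC2 than in the naive T libraries, the other 2 lay beside Pik3r1 and Tbl1xr1. A region 131 kb from Pik3r1 (chr13:101546333-101549716), the gene of a regulatory subunit of PI3 kinase, had 46.8 and 49.6 tags in the naive T libraries and 42.9 in the spleen. It had 151.5 and 141.5 in the Th2 libraries, 133.9 and 105.1 in ILC2s and 128.2 in the thymus (log2 fold change 1.48 ± 0.21 SE against naive T cells, limma adjusted p = 0.026). Th2 cells, ILC2s and thymus thus stood together above naive T cells and spleen. A region 132 kb from Tbl1xr1 (chr3:21932973-21944336), the gene of a transcriptional corepressor subunit, had 283.8 and 382.3 tags in the naive T libraries, 390.2 and 450.7 in the Th2 libraries and 538.4 and 662.3 in ILC2s (1.04 ± 0.15 SE, limma adjusted p = 0.028). The ILC2 libraries were the highest of the 8 there, with 478.6 tags in the thymus next.

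The 3 regions that were lower in ILC2s than in naive T cells lay next to Btg1, Lef1 and Cblb. Btg1 encodes an inhibitor of proliferation and Cblb a ubiquitin ligase that restrains T cell activation. The Lef1 region (chr3:130943917-130948423) had 200.6 and 350.6 tags in the naive T libraries, 86 and 65.7 in the Th2 libraries, 78.2 and 61.3 in ILC2s, 297.9 in the spleen and 596.2 in the thymus. Its log2 fold change was -1.76 ± 0.24 (SE, limma adjusted p = 0.024). The Cblb region (chr16:51806473-51808526) had 128.3 and 162.1 tags in the naive T libraries and 66.5 and 61.3 in ILC2s, a log2 fold change of -1.0 ± 0.14 (SE, limma adjusted p = 0.025). In both, Th2 cells were at the level of ILC2s, with 61.7 and 64.9 tags in the Cblb region. The Btg1 region (chr10:96200439-96205274) had 192.3 and 237.7 tags in the naive T libraries, 183.3 and 155 in the Th2 libraries and 68.5 and 84.5 in ILC2s. There ILC2s stood below all other libraries, with log2 fold changes of -1.31 ± 0.18 against naive T cells (limma adjusted p = 0.022) and -1.58 ± 0.18 against Th2 cells (limma adjusted p = 0.020). Per kilobase of peak both turned direction, to 0.20 against naive T and 0.034 against Th2 cells.

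Against Th2 cells, 3 further regions are given as higher in ILC2s, and in each of them the Th2 libraries were the lowest of the 8. A region between Pde7b and Ahi1 (chr10:20833818-20836335) had 212.5 and 185.7 tags in ILC2s, 51.7 and 40.4 in the Th2 libraries and 104.5 and 182.4 in the naive T libraries (1.68 ± 0.22 SE, limma adjusted p = 0.026, and 0.052 with the site as a replicate block). A region 127 kb from Itga4 (chr2:79120172-79128532) had 392.1 and 592.6 tags in ILC2s, 80.4 and 101.1 in the Th2 libraries and 125.4 and 266.9 in the naive T libraries (1.98 ± 0.29 SE, limma adjusted p = 0.034). A region between Bcl6 and Lpp (chr16:24150599-24155956) had 323.9 and 312.3 tags in ILC2s, 121.6 and 112.9 in the Th2 libraries and 200.6 and 326.6 in the naive T libraries (1.01 ± 0.16 SE, limma adjusted p = 0.039, and 0.075 with the block). Lower in ILC2s than in Th2 cells was a region 158 kb from Map3k1 (chr13:111976730-111980747), a kinase of the MAP kinase cascade, with 63.3 and 86.3 tags in ILC2s and 153.8 to 271.6 in the other 6 libraries (-1.83 ± 0.32 SE, limma adjusted p = 0.049, and 0.078 with the block). ILC2s were the lowest of the 8 there. A second region of the Pik3r1 gap, 138 kb from that gene, had 139 and 147.4 tags in the Th2 libraries and 107.8 and 99.9 in ILC2s (-0.90 ± 0.15 SE, limma adjusted p = 0.045, and 0.080 with the block). These 4 calls were thus lost when the lavage and lymph node sites were fitted as blocks.

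These height calls rest on tags summed over a library's peaks and so include peak length. Divided by the length of each library's own peaks, 2 desert regions were higher in the ILC2 than in the naive T libraries and none was lower, and none differed between ILC2s and Th2 cells. The Ikzf2 region kept its call in that setting, at a log2 fold change of 0.84. The Myc region had, per kilobase of peak, 0.54 against naive T cells and -0.05 against Th2 cells, and the Bcl6 and Lpp region -0.03 against Th2 cells. Without centring, the Tbl1xr1 region (0.86, adjusted p = 0.141) and the second Pik3r1 region (-0.46, adjusted p = 0.280) missed the threshold in limma. With the lavage naive T library left out, 20 desert regions were higher in ILC2s than in Th2 cells and 12 lower, and with the lymph node one left out 25 and 17. Leaving out any Th2 or ILC2 library gave 0 in both directions, with the lone library taken to vary like the other groups. For Th2 against naive T cells, 49 were higher and 12 lower without the lavage naive T library.

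**Figure D5:**
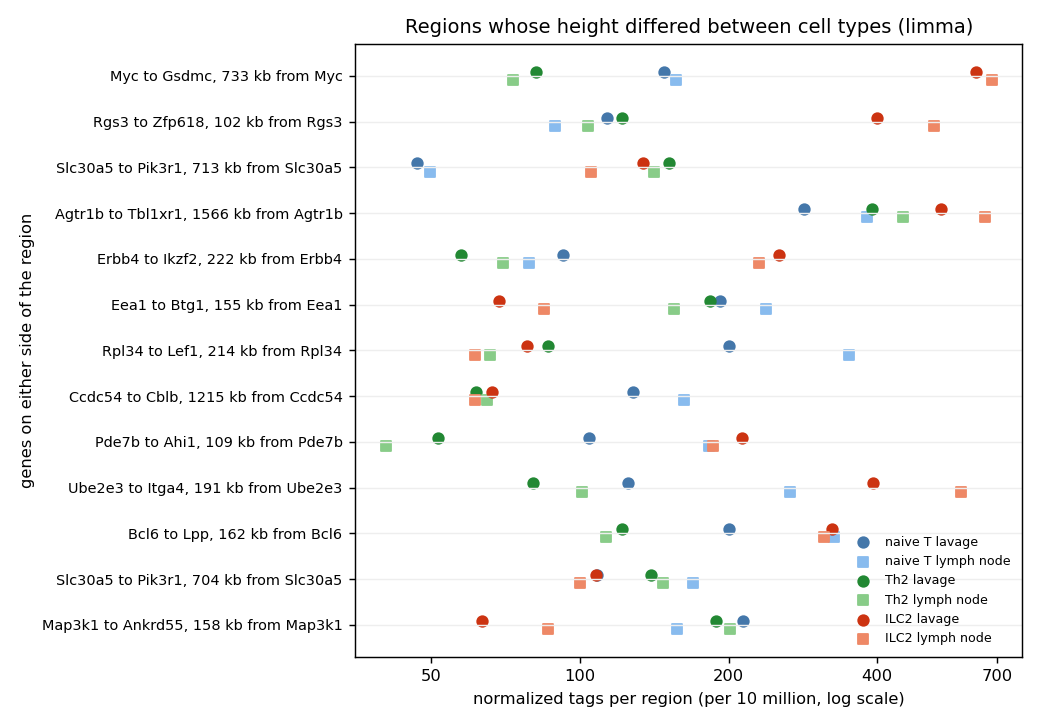
Normalized tag count on a log scale (x) of 13 desert regions with a height difference between cell types (rows), in the 6 airway libraries. Circles are lavage and squares lymph node libraries. The ILC2 symbols lie to the right of all others in, for example, the Myc, Rgs3, Tbl1xr1, Ikzf2 and Itga4 rows and to the left in the Btg1 and Map3k1 rows.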

How the data were processed

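H3K4me2 peak lists of 8 libraries were used. Per the file headers, the authors called peaks in each library alone with HOMER findPeaks and stitched neighbours into regions of variable length. Bowtie, HOMER and mm10 are named in the submitters' processing notes, without versions. The deposited signal is a normalized tag count, scaled by the authors to 10000000 tags. The deposited fold is the authors' ratio of tags over IgG. The 2 IgG samples were not analysed here, and although titled IgG they are labelled with the H3K4me2 antibody.

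Peaks within 500 bp were merged in Python 3.11.15, and each library's tags were summed over its peaks in a region, since stitching makes the tallest peak depend on where peaks were joined. Gene intervals came from a RefSeq table of GRCm38.p6, which gives no exons, introns or UTRs, so these were not told apart. Classes were compared with exact sign-flip and permutation tests over libraries. Heights were compared with limma 3.58.1 (R 4.3.3) on log2 sums, centred per library on the median, with an adjusted p under 0.05 as the threshold and no pseudocount, since only regions called in all 6 airway libraries entered. The script was tested on simulated data. The reported fit has no replicate block. Alternatives changed the merging, the distance, the gene set, the tag minimum, the numbers of peaks, the height measure, the centring, the block and single libraries. Leaving out antigen receptor loci and chromosomes X and Y were added later.

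Named were up to 5 regions per limma comparison and direction by p, the 5 tallest of each airway cell type alone and of all 8 libraries, the 3 tallest of spleen and of thymus alone, the 6 fullest gaps, gaps beside listed genes, and the regions nearest to the distance limit. A few items that these rules name are not reported here. Members, gene lists and tests were chosen with earlier results of these data known. The p-values measure the spread between these libraries, which may be technical. Deviations of the lavage and lymph node libraries from their cell type means correlated at -0.01 to 0.26 between cell types, so the numbers were not taken as pairs.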

Additional observations from a re-analysis of the deposited data

Results flagged for a closer look

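The share of desert regions among the called regions moved differently with the site in naive T cells than in the other airway types. For naive T cells it was 2.36% in lavage and 3.32% in lymph node, a lavage minus lymph node difference of -0.96 points. In Th2 cells the difference was 0.078 points and in ILC2s 0.00724 points, both of the other sign. With 1 library per site and cell type, these differences were not tested against each other. The immunoprecipitation efficiency of the naive T libraries was 37.3% (lavage) and 53.7% (lymph node) and differed less between the sites in Th2 cells (28.7% and 29.3%) and ILC2s (43.2% and 45.0%); its part was not tested.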

How the results depend on the processing

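The lower height of desert regions and their larger share called in a single library kept direction and side of the threshold in every alternative run. The Jaccard difference and the ILC2 minus T cell share kept their direction. The range of the 3 cell type means cannot be negative, and the Jaccard and range tests cannot pass the threshold in this design. The log2 height difference ranged from -1.33 to -0.33, the single-library difference from 4.51 to 8.76 points and the all-library difference, which is not tested, from -54.1 to -38.8 points. The lavage minus lymph node share, -0.29 points over the 3 cell types (exact sign-flip p = 1, smallest possible 0.25), turned to 0.10 with equal numbers of peaks and ranged from -0.48 to 0.041 when 1 library was left out.

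Counts moved with the definition. In the order no gene within 50 kb, no gene within 200 kb, and every gene of the table in place of coding genes, desert regions numbered 2595, 561 and 116. Regions called in ILC2s and not in naive T cells numbered 414, 95 and 28, and in ILC2s and not in Th2 cells 576, 130 and 34. Those of naive T and not ILC2s numbered 102, 20 and 2, naive T and not Th2 133, 30 and 6, Th2 and not naive T 48, 8 and 2, and Th2 and not ILC2s 49, 8 and 1. With peaks of 80 or more tags they were 125, 162, 28, 43 and 19 for the first 5 of these sets. With equal numbers of peaks, ILC2s and not naive T gave 88, ILC2s and not Th2 72, naive T and not Th2 15, Th2 and not naive T 51, and Th2 and not ILC2s 64. Leaving out 1 library gave 47 to 373 for naive T and not ILC2s, 67 to 472 for naive T and not Th2, 29 to 84 for Th2 and not naive T, and 19 to 41 for Th2 and not ILC2s. A cell type left with 1 library needed a peak, or its absence, in that library only.

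In limma, ILC2s against naive T cells gave 17 higher and 11 lower desert regions at 50 kb, 2 and 1 at 200 kb, 1 and 0 with every gene, 5 and 0 with equal numbers of peaks, and 2 and 0 per kilobase of peak, where fewer or more regions were tested except per kilobase. Without centring 5 were lower. ILC2s against Th2 cells gave 11 and 9 at 50 kb, 2 and 0 at 200 kb, 0 and 0 with every gene, 3 and 1 at 80 tags, and 0 and 0 per kilobase. It gave 4 higher and 1 lower with the site as a replicate block, 19 higher without centring, and 1 lower with equal numbers of peaks. Th2 against naive T cells gave 2 higher and 18 lower without centring, and 1 higher each with peaks merged within 2000 bp, at 50 kb and with the tallest peak as height. Leaving out 1 library gave 0 to 45 higher and 0 to 5 lower for ILC2s against naive T cells, 0 to 25 and 0 to 17 for ILC2s against Th2 cells, and 0 to 49 and 0 to 12 for Th2 against naive T cells; the cause was not tested. Of the 16 height differences that the naming rule selects, the block took the 4 given above below the threshold and no centring, a mean trend and the tallest peak 2 each. Per kilobase, 11 fell below it and 4 reversed: Bcl6 and Lpp -0.029, Eea1 and Btg1 0.034 against Th2 and 0.20 against naive T cells, and Myc and Gsdmc -0.052 against Th2 cells.

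With 2 libraries per cell type and peaks resting on as few as 41 tags, absence of a call is not absence of the mark. The counts of regions called in a single cell type were not tested.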
